A study of Homo sapiens with 6 samples.

Results

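The snoRNA host genes, 32 of the 60676 genes in the count table, are the group described here. A row belonged to it if its Ensembl identifier carried the symbol SNHG and a number, or was GAS5, ZFAS1, DANCR or EPB41L4A-AS1. This rule used no measured value, but the group was chosen with earlier results of these data known. RNA was sequenced from 6 pulldowns out of lysate of HEK 293, an established human embryonic kidney cell line grown in suspension. Glutathione S-transferase (GST) alone was the bait in 3 libraries. In the other 3 the bait was the GST-tagged FERRY complex (GST-Ferry), an effector of the early-endosome GTPase RAB5 built of TBCK, PPP1R21, C12orf4, CRYZL1 and GATD1. All 6 libraries shared the cell line, the resin, the rRNA depletion and the strand-specific library kit. The question put to the host genes was whether their RNA was recovered at a different level with GST-Ferry than with GST alone. A library of the whole lysate was not analysed here. Each value is thus relative to the other RNA on the resin, and less of one RNA cannot be told apart from more of the others. The table names its columns control and sample with a number, and these were taken as GST and GST-Ferry, number for number. The labels do not say that replicates came from separate cultures, so the spread behind each p-value is that between these libraries alone and may be technical.

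Small nucleolar RNAs (snoRNAs) guide the chemical modification and cleavage of ribosomal and other RNAs in the nucleolus. In human cells nearly all of them are cut out of introns after splicing of a host transcript. Box C/D snoRNAs guide 2′-O-methylation and assemble with fibrillarin, whereas box H/ACA snoRNAs guide pseudouridylation and assemble with dyskerin. Many hosts make proteins of the ribosome, but the genes described here are, with few exceptions, spliced long noncoding RNAs (lncRNAs) whose exons encode no known protein. Several of them start with a pyrimidine tract like that of ribosomal protein mRNAs, a sequence that links translation to growth signals. Many are loaded onto ribosomes in the cytoplasm and removed by nonsense-mediated decay.

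The start regions of hosts at both ends of the fold-change range are shown because they are the sequence around the tract that the family is known for. Each line gives 100 bases of GRCh38.p14 from RefSeq, 5′ to 3′, from 50 bases before the annotated start. Capitals mark the longest stretch of C and T that begins with a C within 10 bases of that start. For SNHG7 the C and T letters continue upstream of the capitals, beyond that limit. SNHG10 and SNHG3 had the lowest and SNHG16 and SNHG7 the highest fold changes among members averaging at least 20 CPM (read counts scaled for depth and library composition). SNHG4 and SNHG12 were added after their values were seen, for long tracts next to the start.
SNHG10, chr14:95534823-95534922, minus strand: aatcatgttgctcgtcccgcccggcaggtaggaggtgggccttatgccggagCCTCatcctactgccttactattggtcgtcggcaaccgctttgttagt
SNHG3, chr1:28505893-28505992, plus strand: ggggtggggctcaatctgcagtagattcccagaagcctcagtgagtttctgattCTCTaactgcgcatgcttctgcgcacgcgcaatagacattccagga
SNHG16, chr17:76557714-76557813, plus strand: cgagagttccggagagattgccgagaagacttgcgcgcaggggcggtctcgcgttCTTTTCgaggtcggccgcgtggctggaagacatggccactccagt
SNHG7, chr9:136728135-136728234, minus strand: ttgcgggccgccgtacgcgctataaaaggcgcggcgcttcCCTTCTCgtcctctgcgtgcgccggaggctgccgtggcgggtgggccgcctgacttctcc
SNHG4, chr5:139274051-139274150, plus strand: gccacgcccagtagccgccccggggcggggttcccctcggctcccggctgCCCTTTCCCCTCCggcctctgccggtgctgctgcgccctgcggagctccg
SNHG12, chr1:28581824-28581923, minus strand: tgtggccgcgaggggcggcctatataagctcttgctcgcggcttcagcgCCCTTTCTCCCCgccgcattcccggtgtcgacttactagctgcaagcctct
RefSeq start regions were matched for 28 of the 32 host genes. A C followed by at least 4 further C or T letters on the transcribed strand, with the first C within 10 bases of the start, was present in 17 of these 28 (60.7%). The same letters were found in 33.3% of 27305 RefSeq start regions of the same length and in 84.9% of 66 for cytosolic ribosomal proteins. With the C exactly at the start, the shares were 25% of the host genes, 4.04% of all start regions and 65.2% of those for ribosomal proteins. SNHG3 and SNHG10 held runs of only 4 bases, under the length searched for. The tract of SNHG4 ran over 13 bases and that of SNHG12 over 12. SNHG19, the host with the lowest fold change of all (-1.86), had a tract of 6 bases exactly at the start. SNHG8 (-1.21) had a tract of 6 bases near it. A match of this kind describes letters and does not show a tract in use, and its relation to fold change was not tested.

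Encoded snoRNAs are printed next. SNORA73B is the snoRNA with the most counts inside any host gene, and SNORA26 was added after its values were seen, as the one with the lowest fold change. Both are box H/ACA snoRNAs, and the capitals mark the ACA that stands 3 bases before the 3′ end. The sequences are those of GENCODE 29 transcripts on GRCh38.
SNORA73B in SNHG3, chr1:28508559-28508762, plus strand: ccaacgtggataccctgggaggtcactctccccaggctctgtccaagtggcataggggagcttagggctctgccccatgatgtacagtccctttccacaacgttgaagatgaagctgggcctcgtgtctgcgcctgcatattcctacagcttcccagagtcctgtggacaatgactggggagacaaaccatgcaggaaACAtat
SNORA26 in DANCR, chr4:52713249-52713370, plus strand: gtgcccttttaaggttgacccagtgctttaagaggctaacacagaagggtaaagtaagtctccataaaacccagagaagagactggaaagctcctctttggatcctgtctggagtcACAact
SNORA73B is a human snoRNA with a role in early cleavage of the ribosomal RNA precursor. It lies in an intron of SNHG3 and of RCC1, with which SNHG3 overlaps. SNORA26 lies in an intron of DANCR.

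The libraries held between 7390346 and 10466520 counts with GST and between 2454538 and 6532665 with GST-Ferry. A count of 3, taken as the most that a count of 0 allows, was worth 0.273 CPM in the deepest library and 1.3 CPM in the shallowest, for counting error only. PPP1R21, C12orf4 and TBCK, genes of the bait complex, had adjusted p = 0.0111 each and higher values with GST-Ferry (edgeR quasi-likelihood test, Benjamini-Hochberg adjustment over 15546 genes, used throughout). These values differed widely among the GST-Ferry libraries, with PPP1R21 at 798, 18290 and 37620 CPM. CRYZL1 and GATD1, also of the complex, did not pass, at log2 fold changes of -0.50 ± 0.22 and 0.12 ± 0.23 (edgeR adjusted p = 0.248 and 0.808). All 7 HEK 293 markers were detected in every library, with sums of 886 to 1074 CPM with GST and 1383 to 2084 CPM with GST-Ferry, and KRT18 passed the test at a log2 fold change of 1.18 ± 0.22. Of 9 markers of other cell types, HBB and CD3E were at 0 in all libraries, COL1A1 was the only one detected in every library, and the sums were 21.2 to 47.7 and 53.1 to 59.6 CPM. The part of these shifts in the results on host genes was not tested.

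With GST-Ferry the noncoding snoRNA hosts made up a smaller share of the recovered RNA than with GST. They took 0.209%, 0.298% and 0.283% of all counts in the 3 GST libraries, and 0.165%, 0.169% and 0.151% in the 3 GST-Ferry libraries. The shares of the baits did not overlap, with means of 0.263% ± 0.0477 and 0.162% ± 0.00947 (SD, n = 3 each). Of the 26 host genes with enough counts to be tested, 25 had a fold change below 0, against 52.2% of all 15546 genes tested. Their median log2 fold change, GST-Ferry over GST, was -0.76, with quartiles at -0.99 and -0.40, and the median of all genes was -0.027. SNHG7 alone lay above 0, at 0.034 ± 0.29.

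No single host gene passed the adjusted threshold of 0.05, in either direction. By that test 0 of 26 were called lower, against 0.0322% of all genes, and 0 were called higher, against 0.592%. At an unadjusted p below 0.05, 15 were lower and 0 higher, where 8.05% of all genes were lower and 11.3% higher. The CPM values of the baits did not overlap, and were lower with GST-Ferry, for 10 of the 26 (38.5%), against 12.2% of all genes. With DESeq2, 7 host genes were called lower (GAS5, SNHG1, SNHG3, SNHG5, SNHG8, SNHG10 and SNHG19), against 1.14% of all genes, and limma-voom called 0. Testing the 32648 genes left without a filter on low counts gave 11 calls among 29 host genes, against 0.989% of all genes. Those 11 were the DESeq2 calls with DANCR, SNHG4, SNHG12 and SNHG30.

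The number of host genes called depended on library GST 3. Without it, 10 of 27 tested host genes passed the adjusted threshold of 0.05 as lower (DANCR, GAS5, SNHG1, SNHG3, SNHG8, SNHG10, SNHG12, SNHG19, SNHG26 and SNHG30), where 3.54% of all genes did. Leaving out GST 3 and GST-Ferry 1 together gave 11, the same 10 with SNHG4, where 6.51% of all genes did. Without GST 1 the host genes called were GAS5 and SNHG1, where 0.122% of all genes were called lower. Without GST-Ferry 1 SNHG3 was called, where 0.0186% of all genes were. Without GST 2, GST-Ferry 2 or GST-Ferry 3, 0 host genes and 0 of all genes were called lower. The median fold change of the host genes was between -0.88 and -0.59 with any 1 library left out.

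**Figure D1:**
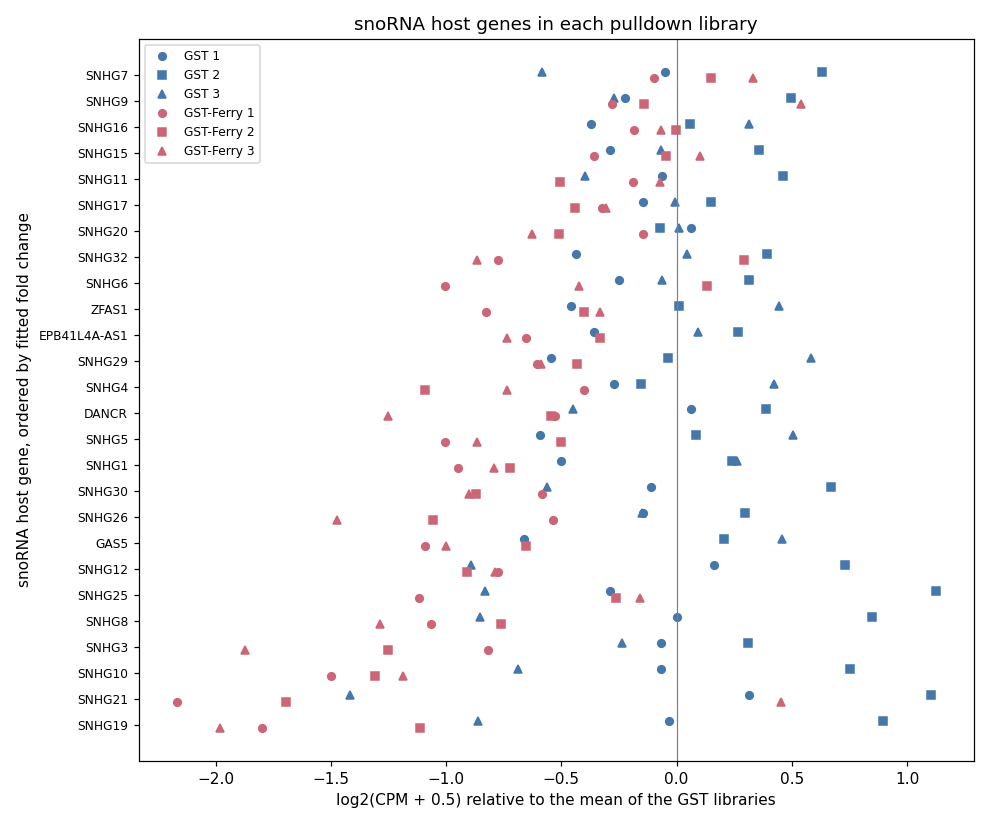
Log2(CPM + 0.5) of each of the 26 tested snoRNA host genes in each library, relative to the gene's mean over the GST libraries and ordered by fold change, with GST libraries in blue and GST-Ferry libraries in red. SNHG3, SNHG10 and SNHG19 have all 3 GST-Ferry points below all 3 GST points, whereas SNHG7, SNHG15 and SNHG16 are interleaved.

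Among the box C/D hosts, all 10 tested genes had fold changes below 0, with a median of -0.73, and none passed the adjusted threshold. SNHG29, the host with the highest level per kilobase of exon (150 CPM per kb), was at 444, 633 and 972 CPM with GST against 427, 480.5 and 432 with GST-Ferry. GST-Ferry 2 overlapped the GST values, the other GST-Ferry libraries lay just under them, and the GST libraries spread over a range wider than the difference of the means. The log2 fold change was -0.61 ± 0.26 (edgeR adjusted p = 0.226), and -0.29 without GST 3.

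SNHG1, the host of the SNORD22 cluster and an early described case of a gene whose introns and not its exons carry the product, was measured at 133, 222 and 225 CPM with GST against 97.1, 114 and 108 with GST-Ferry. Every GST-Ferry library was below every GST library, at means of 193 ± 52.7 CPM with GST against 106 ± 8.47 with GST-Ferry (SD, n = 3 each). That is a 1.82-fold difference, with a log2 fold change of -0.86 ± 0.23 and an edgeR adjusted p of 0.0880. SNHG5, which carries SNORD50, stood at 116, 186 and 249.5 CPM with GST against 87.2, 124 and 96.1 with GST-Ferry. One GST-Ferry library exceeded GST 1, and the log2 fold change was -0.85 ± 0.27 (edgeR adjusted p = 0.127).

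SNHG19, a short host with 342 exonic bases, had the lowest fold change of all host genes. It was at 21.6, 41.5 and 11.9 CPM with GST against 6, 9.95 and 5.22 with GST-Ferry, with 12 to 41 counts in the GST-Ferry libraries and 81 to 456 with GST. Each GST-Ferry value was below each GST value, but the GST libraries themselves ranged over more than 3 times the lowest of them. The means were 25 ± 15.1 CPM with GST against 7.05 ± 2.53 with GST-Ferry (SD, n = 3 each), a 3.63-fold difference. The log2 fold change was -1.86 ± 0.43 (edgeR adjusted p = 0.0624). It was -1.30 without GST 2 and -2.225 without GST 3.

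The other box C/D hosts lay closer to 0 or were less abundant. SNHG30 was at 19.9, 34.5 and 14.4 CPM with GST against 14.2, 11.5 and 11.3 with GST-Ferry, and SNHG26 at 11.7, 16 and 11.6 CPM with GST against 8.78, 5.97 and 4.35 with GST-Ferry. For both, the baits did not overlap, and the log2 fold changes were -0.88 ± 0.32 and -0.97 ± 0.31 (edgeR adjusted p = 0.167 and 0.133). Without GST 2 that of SNHG30 was -0.48. ZFAS1, transcribed antisense from the start of ZNFX1, was at 27.9, 38.8 and 52.6 CPM with GST against 21.5, 29 and 30.4 with GST-Ferry, values that overlap, with a log2 fold change of -0.57 ± 0.26 and an edgeR adjusted p of 0.251. Without GST 3 it was -0.37.

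SNHG16 differed least among the abundant box C/D hosts. It was measured at 213, 286 and 343 CPM with GST against 242, 275 and 263 with GST-Ferry. The GST-Ferry values lay inside the range of the GST values, and the log2 fold change was -0.11 ± 0.21. SNHG6 stood at 25.6, 38 and 29.2 CPM with GST against 14.9, 33.4 and 22.6 with GST-Ferry. SNHG32, annotated as protein-coding in GENCODE 29, stood at 20.7, 37.1 and 29 CPM with GST against 16.2, 34.6 and 15.2 with GST-Ferry. In both, GST-Ferry 2 lay within the range of the GST libraries and the other GST-Ferry libraries below it, and the log2 fold changes were -0.42 ± 0.29 and -0.42 ± 0.32. Leaving out single libraries moved both. SNHG6 was -0.13 without GST-Ferry 1, -0.26 without GST 2 and -0.79 without GST-Ferry 2. SNHG32 was -0.20 without GST-Ferry 1, -0.21 without GST 2, -0.25 without GST-Ferry 3, -0.63 without GST 1 and -0.91 without GST-Ferry 2.

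GAS5, a transcript that accumulates in growth-arrested cells and can bind the glucocorticoid receptor, is known as a host of box C/D snoRNAs, although GENCODE 29 annotates none inside it. Its values were 243, 442 and 526 CPM with GST against 179.7, 243 and 191 with GST-Ferry. GST-Ferry 2 was level with GST 1, and the other GST-Ferry libraries were below all GST libraries. The means of 404 ± 146 CPM with GST against 205 ± 34 with GST-Ferry (SD, n = 3 each) gave a 1.97-fold difference, a log2 fold change of -0.98 ± 0.27 and an edgeR adjusted p of 0.0939.

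Of the 10 box H/ACA hosts tested, 9 had fold changes below 0, with a median of -0.48 and none past the adjusted threshold. SNHG3 came nearest to that threshold of all host genes. It was measured at 119.7, 156 and 106 CPM with GST against 71.1, 52.5 and 33.9 with GST-Ferry, so that every GST-Ferry library was below every GST library. The means were 127 ± 25.5 CPM with GST against 52.5 ± 18.6 with GST-Ferry (SD, n = 3 each), a 2.39-fold difference. The log2 fold change was -1.26 ± 0.26, with an unadjusted p of 0.000366 and an edgeR adjusted p of 0.0513.

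SNHG4, host of the SNORA74 snoRNAs, was at 73.4, 79.7 and 119 CPM with GST against 67, 41.4 and 53.1 with GST-Ferry, and DANCR, a transcript named for holding back differentiation, at 39.7, 49.9 and 27.7 CPM with GST against 26.2, 25.9 and 15.7 with GST-Ferry. For both genes all GST-Ferry values were below all GST values, for DANCR narrowly. The log2 fold changes were -0.74 ± 0.25 and -0.78 ± 0.27 (edgeR adjusted p = 0.142 and 0.156). SNHG4 shares 626 exonic bases with MATR3 on the same strand, and how reads there were counted is not given. SNHG8 was at 49.7, 89.6 and 27.2 CPM with GST against 23.4, 29 and 20 with GST-Ferry. GST 3 was the lowest GST library for SNHG8 and overlapped the GST-Ferry values, and the log2 fold change was -1.21 ± 0.35 with an edgeR adjusted p of 0.111. Without GST 2 it was -0.70.

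EPB41L4A-AS1, the antisense neighbour of EPB41L4A, was at 26.1, 40.6 and 35.9 CPM with GST against 21.2, 26.6 and 20 with GST-Ferry. SNHG17 was at 128, 158 and 141 CPM with GST against 113, 105 and 115 with GST-Ferry. The baits overlapped for EPB41L4A-AS1, by 1 library, and did not for SNHG17, where the differences were small. Their log2 fold changes were -0.60 ± 0.24 and -0.36 ± 0.18 (edgeR adjusted p = 0.196 and 0.302).

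SNHG15 and SNHG7 were the box H/ACA hosts averaging at least 20 CPM with fold changes nearest to 0. SNHG15 was at 52.6, 82.7 and 61.4 CPM with GST against 50.2, 62.5 and 69.2 with GST-Ferry. SNHG7 was at 28, 45.2 and 19.1 CPM with GST against 27.1, 32.2 and 36.5 with GST-Ferry. The GST-Ferry values lay within the range of the GST libraries, except GST-Ferry 1 just below it for SNHG15. The log2 fold changes were -0.12 ± 0.22 and 0.034 ± 0.29, and neither sign was stable: SNHG7 went to -0.25 without GST 3 and to -0.056 with library sizes alone, and SNHG15 to 0.061 without GST 2. The sign of SNHG16 also turned, to 0.035, without GST 3. SNHG11 and SNHG9, both under 20 CPM on average, had log2 fold changes of -0.30 ± 0.29 and -0.057 ± 0.47 with overlapping values.

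The remaining tested hosts carry snoRNAs of both classes or small Cajal body RNAs (scaRNAs), relatives that guide modification of spliceosomal RNAs. SNHG10, a host of the latter kind, was at 30.8, 54.9 and 19.9 CPM with GST against 11.1, 12.7 and 13.9 with GST-Ferry. The GST-Ferry libraries stood close together and below all GST libraries, which spread widely. The means were 35.2 ± 17.9 CPM with GST against 12.6 ± 1.40 with GST-Ferry (SD, n = 3 each), a 2.84-fold difference. The log2 fold change of SNHG10 was -1.51 ± 0.34, with an edgeR adjusted p of 0.0608. It was -1.05 without GST 2 and -1.82 without GST 3. SNHG20, also a scaRNA host, was at 26.2, 23.9 and 25.3 CPM with GST against 22.7, 17.5 and 16.1 with GST-Ferry, without overlap, and its log2 fold change was -0.40 ± 0.22 (edgeR adjusted p = 0.346).

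SNHG12, which holds snoRNAs of both classes, was at 32.4, 48.2 and 15.3 CPM with GST against 16.7, 15.1 and 16.5 with GST-Ferry. GST 1 and GST 2 were above all other libraries, while GST 3 was among the GST-Ferry values. The log2 fold change was -0.99 ± 0.34 (edgeR adjusted p = 0.155), and -0.59 without GST 2. SNHG25 and SNHG21 averaged under 3 CPM, with log2 fold changes of -1.06 ± 0.66 and -1.69 ± 0.93 that rest on few counts and overlap between baits.

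The 6 host genes that were not tested had too few counts. SNHG31 was the most abundant of them, at 0.796 to 1.65 CPM, and its 3 GST-Ferry values were below its 3 GST values. SNHG22 had 11 counts in all and SNHG14 had 3. SNHG14 is the long transcript of the imprinted Prader-Willi region, known mainly from neurons. SNHG18, SNHG27 and SNHG28 were at 0 in every library. For SNHG18 and SNHG27 this allows up to 0.273 CPM in GST 2 and up to 1.3 CPM in GST-Ferry 3. All 2242 exonic bases of SNHG28 are shared on the same strand with ENSG00000256029. How reads there were counted is not given, so the count of SNHG28 sets no such limit.

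**Figure D2:**
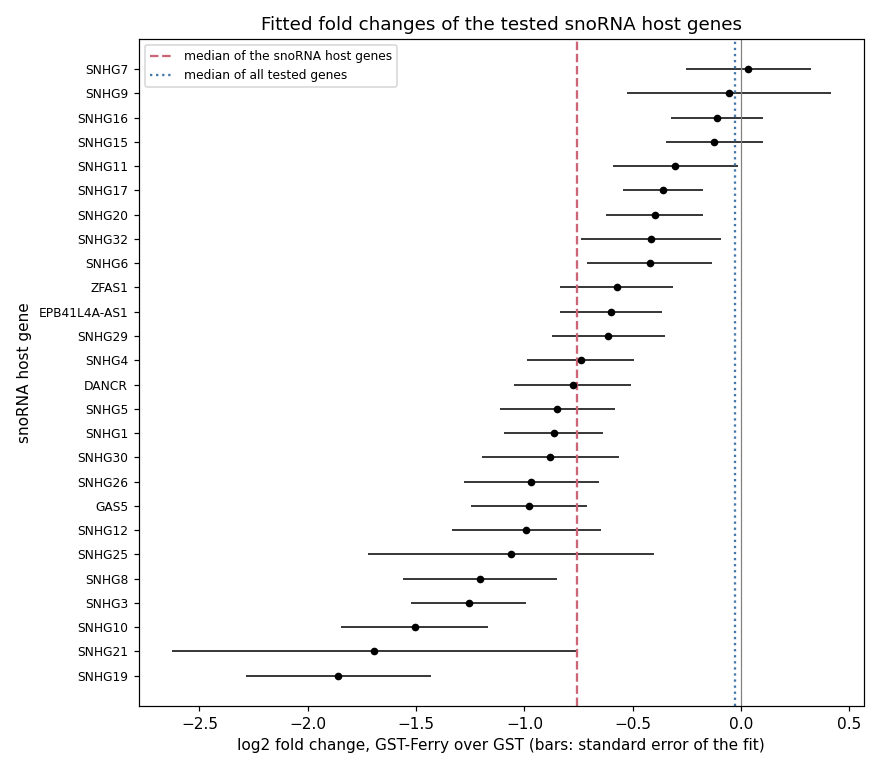
Log2 fold change (GST-Ferry over GST) with its standard error for the 26 tested snoRNA host genes, with the median of the host genes (dashed) and of all tested genes (dotted). All points but that of SNHG7 are below 0, and the lowest is SNHG19 at -1.86.

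Set side by side with other genes, the host genes had a lower median fold change than other lncRNAs and than protein-coding hosts. lncRNAs other than the host genes also had fold changes mainly below 0, with 75.9% of 1632 tested and a median of -0.34. At a mean of at least 10 CPM, the median was -0.36 for 310 other lncRNAs and -0.68 for 22 host genes. Values of the baits that did not overlap, lower with GST-Ferry, were found for 27.7% of these lncRNAs and for 40.9% of these host genes. Protein-coding genes with an annotated snoRNA inside numbered 230 and had a median of -0.091, with 61.3% below 0, 0 called lower and 1 called higher. Genes of cytosolic ribosomal proteins, 82 tested, had a median of -0.14. These medians and shares are descriptions and were not tested against each other.

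Of 39 protein-coding snoRNA hosts in a list drawn up for this comparison, 24 were below 0, the median was -0.15 and none passed the test. EEF2, the translocation factor of the ribosome, was at 2551, 2778 and 2192 CPM with GST against 3062, 4122 and 3954 with GST-Ferry, a log2 fold change of 0.57 ± 0.23 (edgeR adjusted p = 0.202).

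The mRNAs of the proteins that package snoRNAs had a median fold change above 0. Of 20 genes for snoRNP proteins and their assembly factors, 14 had fold changes above 0, with a median of 0.21, 0 called, and 6 higher at an unadjusted p below 0.05. Over all tested genes 47.8% were above 0 and 11.3% higher at that p. NOP56, a core box C/D protein that is itself a host, was at 338, 456 and 256 CPM with GST against 224, 256 and 300.5 with GST-Ferry and had a log2 fold change of -0.43 ± 0.23 (edgeR adjusted p = 0.334). TCOF1, a nucleolar phosphoprotein, had 326, 311 and 179 CPM with GST against 289.7, 304 and 348 with GST-Ferry and 0.21 ± 0.24 (edgeR adjusted p = 0.664).

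Of 19 factors of nonsense-mediated decay, 11 were above 0, with a median of 0.048 and 0 called. SMG1, the kinase of the pathway, was at 324, 307 and 406 CPM with GST against 281, 268 and 258 with GST-Ferry, with a log2 fold change of -0.36 ± 0.19 (edgeR adjusted p = 0.321). RNPS1, a protein of the exon junction, was at 206, 243 and 190.5 CPM with GST against 212, 274 and 289 with GST-Ferry, with 0.27 ± 0.20 (edgeR adjusted p = 0.474). In a list of 7 lncRNAs that host no snoRNA, from LINC00910 at a mean of 2.92 CPM to MALAT1, all 7 were below 0, the median was -0.35 and 0 were called. MALAT1, a nuclear-speckle RNA, was at 10810, 10700 and 11000 CPM with GST against 7879, 6831 and 6626 with GST-Ferry, with -0.61 ± 0.23 (edgeR adjusted p = 0.182). NEAT1, the scaffold of paraspeckles, was at 1404, 1218 and 1612 CPM with GST against 1643, 1251 and 1287 with GST-Ferry, with -0.018 ± 0.22. Values of the baits did not overlap, lower with GST-Ferry, for 4 of the 7 (57.1%), MALAT1 among them and NEAT1 not. That share was 38.5% for the tested host genes and 12.2% for all genes.

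**Figure D3:**
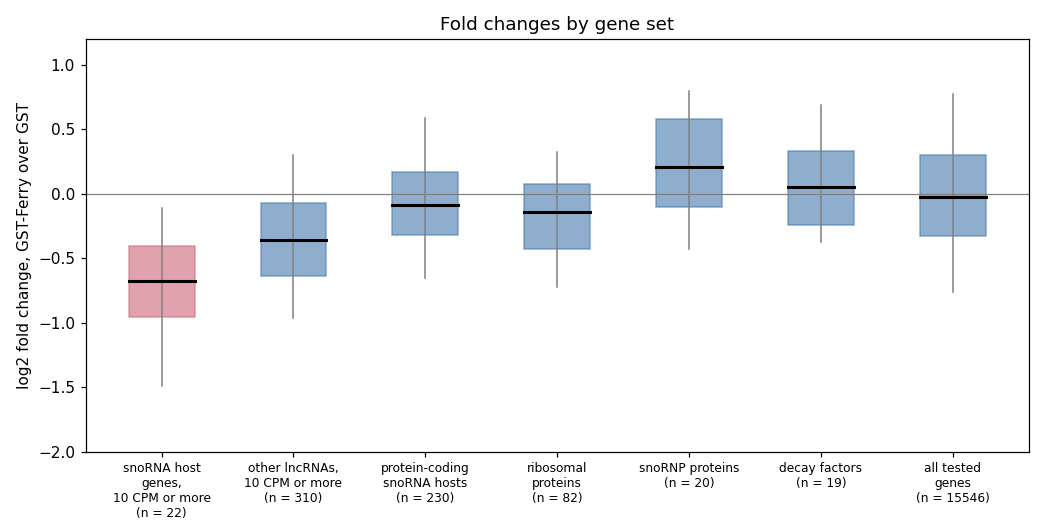
Log2 fold changes (GST-Ferry over GST) by gene set, with the median as a black line, the quartiles as a box and the 5th to 95th percentile as a grey line. The host genes of at least 10 CPM have a median of -0.68, under those of the other lncRNAs (-0.36), the protein-coding hosts (-0.091) and all tested genes (-0.027).

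The snoRNAs inside the host genes mostly had no counts. GENCODE 29 places 144 snoRNAs of the count table inside the 32 host genes on the same strand, 84 of them in SNHG14, and 129 had 0 counts in every library. All 45 that lie within an annotated exon of some isoform of their host were at 0, and 10 of the 94 that lie in introns had at least 10 counts. Of those 94, 71 lie in SNHG14, and outside it 10 of 23 intronic snoRNAs had at least 10 counts. How the authors' counting treated reads that fall on a host and its snoRNA at once is not given in the sources used here.

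Of the 8 encoded snoRNAs that were tested, none passed the adjusted threshold. SNORA73B, printed above, was at 63.4, 71.5 and 144 CPM with GST against 80.8, 79.6 and 120 with GST-Ferry. Its GST-Ferry values lay within the range of the GST values, with a log2 fold change of 0.0047 ± 0.30, while its host SNHG3 had -1.26 ± 0.26. SNORA74A, in SNHG4, was at 6.71, 13.2 and 38 CPM with GST against 14.6, 9.55 and 22.2 with GST-Ferry, values that overlap, with -0.31 ± 0.51. SNORA26 was at 4.76, 11.3 and 1.92 CPM with GST against 1.61, 0.796 and 0.870 with GST-Ferry. The GST-Ferry libraries, with 2 to 11 counts each, were below all GST libraries, and the log2 fold change was -2.30 ± 0.65 (edgeR adjusted p = 0.101), on the same side of 0 as its host DANCR. The other 5 were SNORD104 at -1.61 ± 0.64, SNORA13 at -0.95 ± 0.69, SNORD12C at -0.76 ± 0.66, SNORA74D at -0.49 ± 0.61 and SNORA71B at -0.045 ± 0.39. The libraries measure these short RNAs only as far as the kit retained them.

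Many host genes share their locus with another gene, and the counting of shared bases is uncertain there, since the strand setting is not given in the sources used here. Of the 26 tested host genes, 16 overlap another annotated gene, with a median fold change of -0.68. The 10 that overlap none had a median of -0.86 and were all below 0. For 12 host genes a tested overlapping partner could be set beside them, 11 of the partners protein-coding, and the fold change of the host gene was the lower of the pair in 12 of 12. The partners had a median of 0.17, with 5 of 12 below 0 and 0 called. Over all 12864 tested protein-coding genes the median was 0.023, against -0.76 for the host genes. The order within pairs thus says little about the shared loci.

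RCC1, the nucleotide exchange factor of the GTPase RAN, encloses SNHG3 on the same strand and shares 242 exonic bases with it. SNHG3 lies at chr1:28505980-28510892, plus strand, on GRCh38. RCC1 was at 112, 111 and 104 CPM with GST against 126, 168 and 160.5 with GST-Ferry, each GST-Ferry library above each GST library, with a log2 fold change of 0.48 ± 0.19 (edgeR adjusted p = 0.204). The log2 ratio of SNHG3 to RCC1 within a library was 0.10, 0.49 and 0.026 with GST and -0.83, -1.68 and -2.24 with GST-Ferry. The ratios did not overlap between baits, and their means differed by -1.79. For SNHG20 and SEC14L1, which share 460 exonic bases on the same strand, the mean ratio was -1.72 ± 0.22 with GST and -2.57 ± 0.36 with GST-Ferry (SD, n = 3 each), a difference of -0.85. The exact two-sided permutation p was 0.1 for each of these 2 pairs, and 0.1 after Benjamini-Hochberg adjustment, the smallest that 3 libraries against 3 can give.

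**Figure D4:**
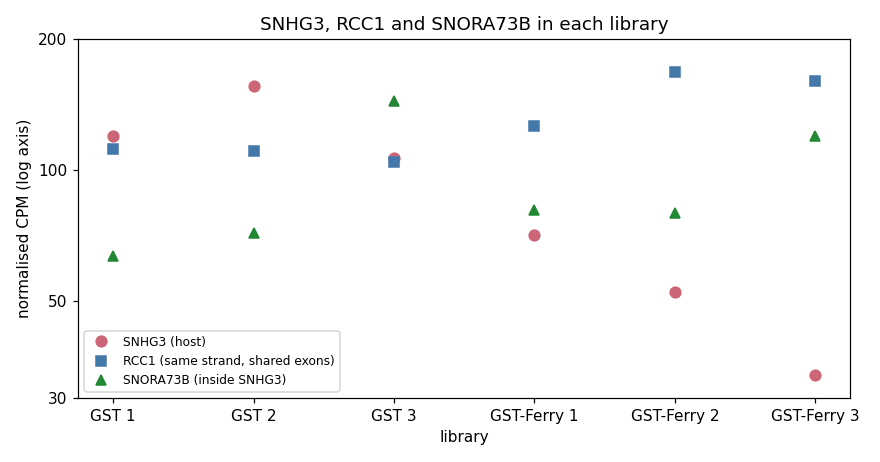
CPM (log axis) of SNHG3, of its intronic snoRNA SNORA73B and of the enclosing gene RCC1 in each library. SNHG3 is lower in the 3 GST-Ferry libraries, RCC1 is higher in them, and SNORA73B overlaps between baits.

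GLRX5, a mitochondrial iron-sulfur cluster protein, runs on the opposite strand to SNHG10 (chr14:95532297-95534872, minus strand). It was at 28.1, 28.4 and 34.6 CPM with GST against 41.4, 48.5 and 40.5 with GST-Ferry. GLRX5 was higher in each GST-Ferry library, with 0.52 ± 0.20 (edgeR adjusted p = 0.194), where SNHG10 had -1.51 ± 0.34. ZBTB37, opposite GAS5 (chr1:173863900-173868882, minus strand), was at 81.4, 90.7 and 172 CPM with GST against 79.9, 72.8 and 65.2 with GST-Ferry. It lay below 0 like its neighbour, at -0.65 ± 0.27 (edgeR adjusted p = 0.216), and shares no exonic base with GAS5.

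The host genes also differed among the GST libraries. GST 2 held the highest value of 17 of the 26 tested host genes, and GST 3 that of 7. The matching shares over all tested genes are not given here, so these counts are not shown to be particular to the host genes. Relative to the mean log2(CPM + 0.5) of the gene over the GST libraries, the median host gene stood at -0.19, 0.34 and -0.11 (log2) in GST 1 to GST 3 and at -0.71, -0.51 and -0.74 in GST-Ferry 1 to GST-Ferry 3. Within the GST group, GST 3 was the lowest library for 13 host genes, among them SNHG3, SNHG8, SNHG10, SNHG12 and SNHG19, and the highest for 7, which were GAS5, SNHG1, SNHG4, SNHG5, SNHG16, SNHG29 and ZFAS1. Over all tested genes GST 3 was the lowest for 45.1% and the highest for 40.4%.

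The host genes that were lowest in GST 3 had a median exonic length of 1945 bases, and those that were highest there 3756 bases, counting the exons of all isoforms. Across the 26 host genes, the log2 ratio of GST 3 to the mean of GST 1 and GST 2 went with the log2 exonic length at r = 0.59 (Spearman rho = 0.49), and over 15437 genes r was 0.054. The log2 fold change between baits went with exonic length at r = 0.42 (rho = 0.40) over the host genes and at r = -0.043 over 15442 genes. These are correlations across genes that share the same 6 libraries, and genes are not independent replicates. The shorter host genes include SNHG9, SNHG21 and SNHG25, with only 12, 4 and 8 counts in GST 3. Correlations without them are not given here. What sets GST 3 apart was not tested.

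**Figure D5:**
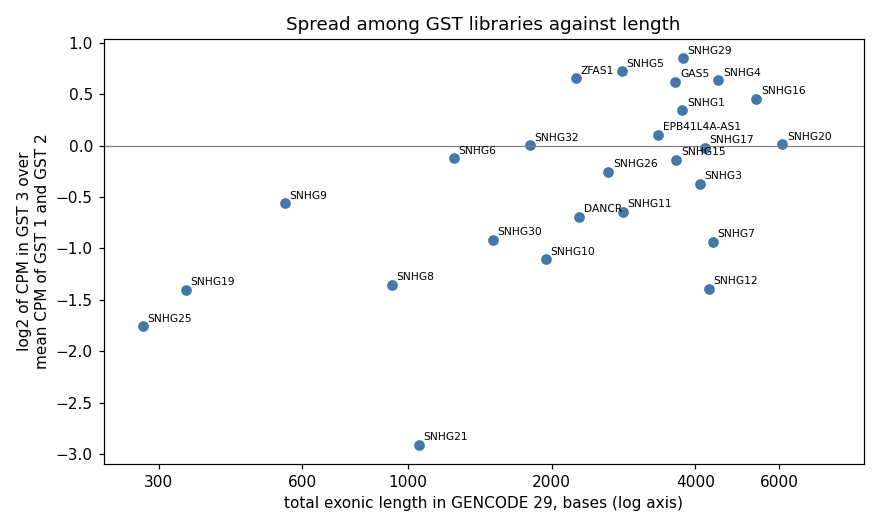
Log2 ratio of library GST 3 to the mean of GST 1 and GST 2 against exonic length (log axis) for the 26 tested snoRNA host genes. Points tend to rise with length (r = 0.59), from SNHG19 (342 bases) below 0 to SNHG29 (3759 bases) above 0, but SNHG3, SNHG7 and SNHG12, of 4088, 4345 and 4266 bases, lie below 0. The points of SNHG9, SNHG21 and SNHG25 rest on 12, 4 and 8 counts in GST 3.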

How the data were processed

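The 6 libraries were analysed from 1 table of raw read counts per gene that the authors deposited. The genome build was GRCh38.p13 and the tools named are STAR 2.5.2b and also bcl2fastq 2.19.1, all per the submitters' processing notes. The counting program, annotation release, strand setting and treatment of reads on several genes are not given in the sources used here. Identifiers were matched to symbols with the gene name table supplied and to GENCODE 29, which gave all 32 host genes a position.

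The host genes and the other gene lists were chosen with earlier results of these data known. Genes passing edgeR's filter (minimum count 10, minimum total 15) were fitted in edgeR 4.0.16 (R 4.3.3, limma 3.58.1) with TMM scaling and the quasi-likelihood test, 2-sided, with Benjamini-Hochberg adjustment over 15546 genes and no replicate block. CPM values are counts scaled to the TMM-adjusted library size, and standard errors are the fold change divided by the root of F. Members averaging at least 20 CPM, or with an unadjusted p below 0.05, are described by library, and the 2 most abundant genes of each other list are named, except 1 gene that is not reported here. The fit was also run on simulated data, and the power of the test at these fold changes is not given here. No 2 libraries agreed within sampling noise (chi-square per degree of freedom 4.43 to 50.3 within a bait). Alternatives were other scalings, filters and tools (DESeq2 1.42.0), a replicate block, thresholds and libraries left out. Removing the bait genes and thinning to equal depth were added after seeing the data.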

Additional observations from a re-analysis of the deposited data

How the results depend on the processing

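No host gene was called higher under any alternative run, and the median fold change stayed within -0.88 to -0.59 (main value -0.76). The median level of the host genes per library had an SD within a bait of 0.218 (log2). That SD is not the spread of the median fold change. The number called lower, 0 in the main fit, was 11 with no low-count filter, 7 with DESeq2, 1 (SNHG3, of 9 genes in all) with small and mitochondrially encoded RNAs removed, 5 (of 118) at an adjusted threshold of 0.1, 11 without GST 3 and GST-Ferry 1 together, and 0 to 10 with 1 library left out. It was 0 with the other scalings, limma-voom, bait genes removed, equal depth, or a threshold of 0.01. With the replicate block it was 4 (SNHG3, SNHG8, SNHG10 and SNHG19) of 28 genes called lower. Same-numbered libraries deviated with correlations of 0.246, 0.0793 and -0.133, the first being the highest of any pair of libraries. Not every library went best with its own number. With so few libraries per bait, these correlations cannot tell whether the numbers pair them. With no filter the median of all genes was -0.18, not -0.027.

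Of the members described by library, 3 changed sign. SNHG7 (0.034) went to -0.0556 with library sizes alone, -0.0247 with no filter, -0.193 at equal depth, -0.0931 without GST 3 and GST-Ferry 1 together, and -0.246 to 0.400 with 1 library left out. SNHG15 (-0.12) ranged from -0.278 to 0.0606 and SNHG16 (-0.11) from -0.292 to 0.0345 with 1 library left out, and SNHG16 was 0.108 without both. Why calls and signs moved was not tested, beyond the libraries and genes that each alternative removes. Without GST 3 and GST-Ferry 1 together SNHG5 was -0.459, ZFAS1 -0.167, SNHG29 -0.239, SNHG6 -0.177 and SNHG32 -0.203. Hosts under 3 CPM are limited by counts.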
